A study of Mus musculus with 3 samples.

Results

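The genes described are 40 listed targets of the transcription factor p53, leaving out p21 (Cdkn1a) and Mdm2. They were found by their symbol in the deposited feature table, which lists 32285 genes; 39 of the 40 were found, and Ptprv was not matched. They were followed in single-cell RNA libraries of the thymus of female mice of 4 weeks, with 1 library per genotype: p53 AD/-, p53-/- and p53+/-. All 3 genotypes thus carry at least 1 altered or absent p53 allele, and no library is labelled as wild type, although the design text of the series speaks of WT. What the AD allele is, the labels leave unsaid; p53 dimers are named in the title of the series. The strain labels give 50% BALB/C and 50% of a C57BL line in each mouse and name that line C57BL6, C57BL7 and C57BL8 in the different samples. With 1 mouse thymus library per genotype there was no replicate and no test, so each difference below compares libraries, and genotype, mouse and library preparation cannot be told apart. Intervals in parentheses are exact, at the 95% level, and take in counting error alone.

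p53 binds DNA as a tetramer, at response elements made of decamer half-sites, and switches on genes that halt the cell cycle, start apoptosis, curb growth through mTORC1, and repair or replace damaged DNA parts. Many of these genes also have other activators, so they can be transcribed without p53. In the thymus, thymocytes pass from a CD4- CD8- (DN) stage through a phase of fast division to the resting CD4+ CD8+ (DP) stage, in which T cell receptor genes are rearranged and most cells die, and then through selection to mature CD4+ or CD8+ T cells. DP thymocytes are known for p53-dependent death after DNA damage, and mice without p53 for thymic lymphomas.

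Of 6308, 9889 and 8880 barcodes in p53 AD/-, p53-/- and p53+/-, 6171, 9543 and 8150 had at least 500 genes and under 10% mitochondrial UMIs (unique molecular identifiers, which count RNA molecules). Stages are gates on summed marker UMIs, that is, ranges and not sorted populations, and none of the 39 genes is a gate marker. The DP gate held 3236, 4742 and 4654 cells in p53 AD/-, p53-/- and p53+/- with 7518367, 12718264 and 14322953 UMIs, and 555, 502 and 366 of these cells lay near its limit (a Rag marker sum of at most 4 UMIs, or at most 1 UMI above the selected sum). The cycling gate held 779, 1758 and 1064 cells in p53 AD/-, p53-/- and p53+/-, the selected gate 1344, 1646 and 1533, the mature gate 375, 751 and 543, and the DN gate 55, 172 and 121. The median UMIs of a DP cell were 2026, 2324 and 2758 in p53 AD/-, p53-/- and p53+/-, and the median share of the nuclear RNA Malat1 was 3.96%, 7.32% and 6.05%. In the p53 AD/- library 18.1% of DP cells held under 1% Malat1, against 1.37% in p53-/- and 1.89% in p53+/-, which sets this library apart. For the genes past 1.5-fold in the DP gate, values in DP cells matched on Malat1 are given below where at least 30 UMIs were left; in the other gates, cells were not matched. The matched set was a random draw of 2124 DP cells per library. Levels are CPM, the UMIs of a gene per 1000000 UMIs of all cells of the gate in that library. Summed markers of other cells in the DP gate stood at 12.8, 13.3 and 27.6 CPM in p53 AD/-, p53-/- and p53+/- for erythroid cells, 4.26, 44.7 and 34.9 CPM for granulocytes, 279, 234 and 180 CPM for macrophages or dendritic cells, 36.0, 34.9 and 33.0 CPM for B cells and 68.2, 96.0 and 87.1 CPM for stromal cells, and cycling markers at 234, 329 and 249 CPM. Their part in the differences below was not tested.

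Trp53 itself, which encodes p53, was read out in every library. Its level in DP cells was 70.4 CPM in p53 AD/-, 47.5 CPM in p53-/- and 63.3 CPM in p53+/-, and the log2 ratio of p53 AD/- versus p53-/- was 0.57 (0.40 to 0.74). Over all filtered cells it was 90.9 CPM (p53 AD/-), 74.9 CPM (p53-/-) and 86.1 CPM (p53+/-). Which exons the null allele lacks is not in the labels, so transcripts from it may still be counted, and these levels are only a weak check of the labels.

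To show letters near these genes that resemble the p53 element, the 250 bases before each RefSeq gene start on GRCm38.p6 were searched for the p53 half-site, a decamer motif. Because the motif reads the same on both strands, 1 pass covers both. A window was given for 31 of the 39 genes, and 7 of the 31 (22.6%) held at least 1 half-site: Ccng1, Aen, Ei24, Sesn1, Ddit4l, Polk and Rps27l. Of all 27025 genes with a window, 8.2% held one. No window of the 31 genes held a pair of half-sites 0 to 13 bases apart, and 0.0639% of all windows did. The stretches below carry the match in 4 genes whose levels are described further on; the set was picked after values were seen. Trp53inp1 and Zmat3, which are described below as well, had no window. Capitals mark the half-site, and letters run 5′ to 3′ on the gene's strand.
Sesn1, chr10:41887189-41887438, + strand: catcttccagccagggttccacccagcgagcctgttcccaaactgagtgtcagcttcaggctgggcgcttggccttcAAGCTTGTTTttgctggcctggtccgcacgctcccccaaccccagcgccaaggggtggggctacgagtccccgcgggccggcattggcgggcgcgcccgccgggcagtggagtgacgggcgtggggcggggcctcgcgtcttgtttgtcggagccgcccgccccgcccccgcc
Ccng1, chr11:40755312-40755536, - strand: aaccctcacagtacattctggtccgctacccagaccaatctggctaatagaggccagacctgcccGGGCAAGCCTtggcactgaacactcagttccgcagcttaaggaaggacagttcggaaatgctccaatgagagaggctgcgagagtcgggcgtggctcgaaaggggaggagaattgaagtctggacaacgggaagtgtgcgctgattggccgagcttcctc
Rps27l, chr9:66946181-66946354, + strand: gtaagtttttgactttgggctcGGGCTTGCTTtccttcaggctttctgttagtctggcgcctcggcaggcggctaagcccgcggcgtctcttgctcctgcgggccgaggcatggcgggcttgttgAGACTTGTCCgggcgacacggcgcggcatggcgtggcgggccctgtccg
Aen, chr7:78895927-78895956, + strand: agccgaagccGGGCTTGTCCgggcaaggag

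The Sesn1 stretch lies directly before its second RefSeq start, the Rps27l stretch holds 2 half-sites and lies in an intron of the GENCODE gene, the Ccng1 stretch ends where an annotated exon begins, and of the Aen window, which overlaps an exon, the half-site is shown with 10 bases on either side. A match is a stretch of letters, not evidence of binding.

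Of 39 genes, 30 had at least 100 UMIs over the 5 gates and 3 libraries, and 16 of the 30 (53.3%) had their highest level in the same gate in all 3 libraries, where 59.8% of all 11862 genes with as many UMIs did. That gate was DP for 11 (36.7%, where 26.3% of all genes were highest in DP in all 3 libraries: Btg2, Tob1, Fbxw7, Fas, Trp53inp1, Sesn1, Slc19a2, Rrm2b, Polk, Ercc5 and Def6), cycling for Psrc1 and Pidd1, DN for Abhd4 and Phlda3, and mature for Tigar. For 6 of them, Btg2, Fbxw7, Fas, Trp53inp1, Sesn1 and Def6, the interval in the DP gate lay above those of all other gates in each library. These 6, and Tob1, remained highest in DP in all 3 libraries when each cell was thinned to 1500 UMIs. How many of all genes met either condition was not counted, and intervals are narrower for genes with more UMIs. Rrm2b, Polk and Ercc5, with 670, 502 and 970 UMIs left over all libraries, were no longer highest in DP in each of them, nor was Slc19a2, on 50 UMIs.

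Fas, the death receptor through which T cells are killed by Fas ligand, stood at 136, 155 and 135 CPM in DP cells of p53 AD/-, p53-/- and p53+/-. In DN cells it stood at 11.7, 13.7 and 17.3 CPM in cells of p53 AD/-, p53-/- and p53+/-, in cycling cells at 33.4, 35.5 and 33.6 CPM, in selected cells at 75.9, 81.2 and 76.8 CPM and in mature cells at 51.9, 54.6 and 46.4 CPM. DP cells of p53 AD/-, p53-/- and p53+/- thus held 11.6, 11.3 and 7.84 times the level of DN cells, and no other gate of any library reached the DP levels. The order DP, selected, mature, cycling, DN was the same in the 3 libraries. DN cells were deeper than DP cells, with median UMIs of 8624 (p53 AD/-), 8869 (p53-/-) and 11061 (p53+/-). In cells thinned as above, Fas stood at 24.2, 23.3 and 27.8 CPM in DN cells of p53 AD/-, p53-/- and p53+/-. In thinned DP cells it stood at 141, 157 and 135 CPM, so the folds of DP over DN cells were smaller there.

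Trp53inp1, a p53 cofactor that also acts in autophagy, followed a like course, with 303, 461 and 443 CPM in DP cells of p53 AD/-, p53-/- and p53+/- and 161, 253 and 245 CPM in selected cells. Its levels in DN, cycling and mature cells lay between 50.0 and 100.1 CPM. Its DP level was 6.06, 5.66 and 5.62 times its lowest gate in p53 AD/-, p53-/- and p53+/-. Btg2, an antiproliferative protein that recruits the CCR4-NOT deadenylase, was at 674 CPM (p53 AD/-), 503 CPM (p53-/-) and 606 CPM (p53+/-) in DP cells. Its other gates lay between 156 and 296 CPM. Sesn1, a sestrin that holds back mTORC1 when amino acids are short, was at 87.0 CPM (p53 AD/-), 53.9 CPM (p53-/-) and 73.3 CPM (p53+/-) in DP cells and between 20.7 and 59.3 CPM elsewhere. Fbxw7, the substrate receptor of a ubiquitin ligase for Notch, Myc and cyclin E, was at 70.1, 80.5 and 68.4 CPM in DP cells of p53 AD/-, p53-/- and p53+/- and at 22.7, 33.0 and 31.4 CPM in mature cells.

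**Figure D1:**
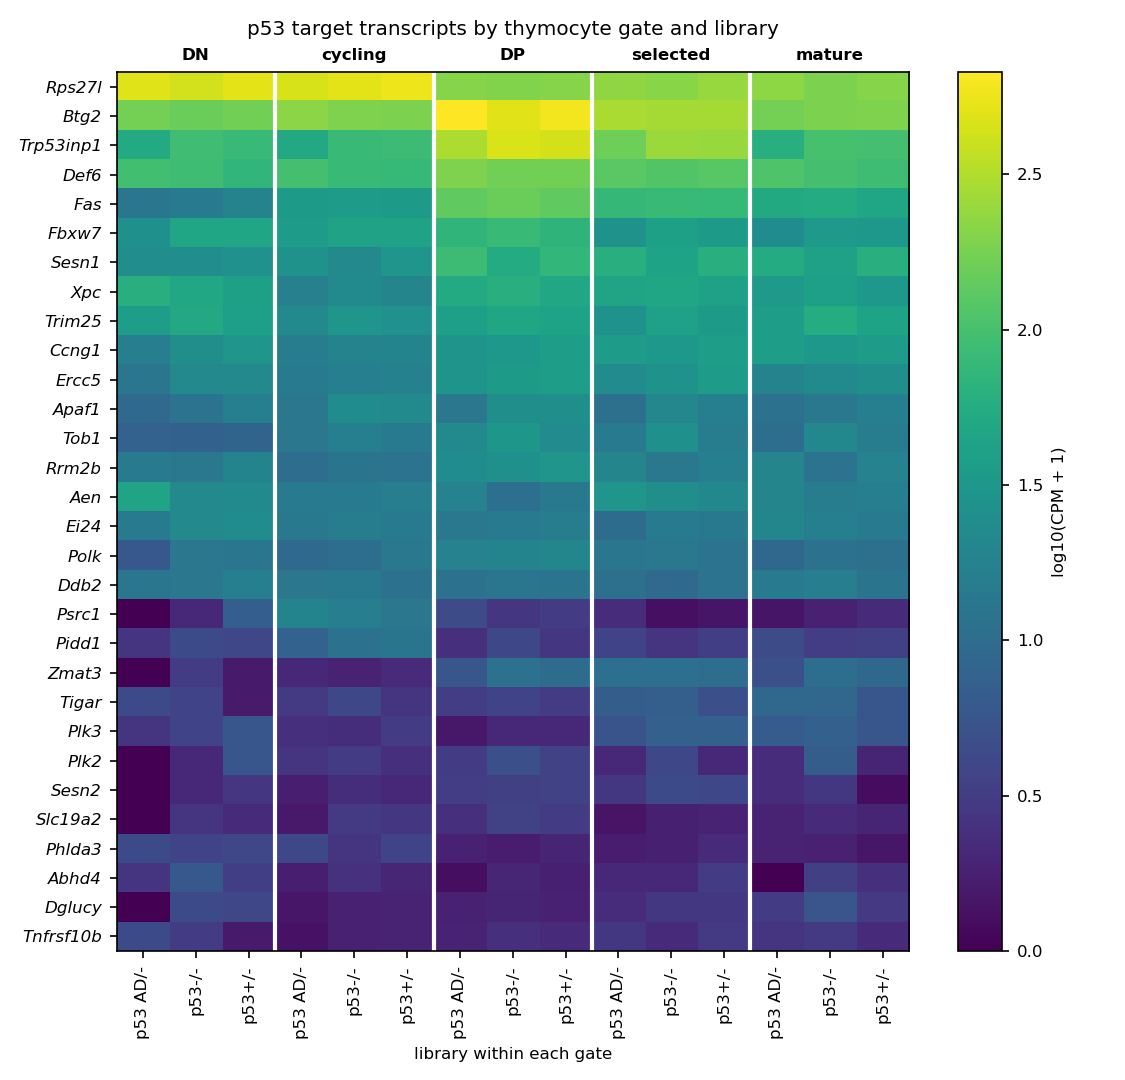
Levels of the 30 p53 target genes with at least 100 UMIs, as log10 of CPM plus 1 (brighter colour is higher), in the DN, cycling, DP, selected and mature gates of p53 AD/-, p53-/- and p53+/- libraries. Fas, Trp53inp1, Btg2, Fbxw7, Sesn1 and Def6 are brightest (highest) in the DP gate of each library, and Psrc1 in the cycling gate.

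A smaller set was highest outside the DP gate. Psrc1, a microtubule-binding protein of the mitotic spindle, was at 17.9, 15.1 and 12.2 CPM in cycling cells, which is 5.16, 8.35 and 5.81 times its DP level in p53 AD/-, p53-/- and p53+/-. Pidd1, the scaffold that activates caspase-2, was at 6.69, 10.2 and 11.5 CPM in cycling cells of p53 AD/-, p53-/- and p53+/-, against 1.46, 3.07 and 1.82 CPM in DP cells. Both lay above their DP intervals in each library. Cycling cells are also the deepest, with median UMIs of 11092 (p53 AD/-), 11386 (p53-/-) and 13144 (p53+/-).

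Rps27l, a ribosomal protein gene that p53 activates, was at 457, 516 and 577 CPM in cycling cells of p53 AD/-, p53-/- and p53+/-, against 203.5, 193 and 207 CPM in DP cells. Its DN level was 486 CPM (p53 AD/-), 429 CPM (p53-/-) and 518 CPM (p53+/-). Rps27l has a close paralog, Rps27, and the counting may have split reads between them, so its level is uncertain. Plk3, a stress-responsive polo-like kinase, was lowest in the DP gate, with 4, 14 and 16 UMIs in p53 AD/-, p53-/- and p53+/-, or 0.532, 1.10 and 1.12 CPM. It stood at 4.43, 6.28 and 6.33 CPM in selected cells of p53 AD/-, p53-/- and p53+/- and 5.67, 6.36 and 4.69 CPM in mature cells, and its highest gate was 10.7, 5.78 and 5.67 times DP. Tigar, a fructose-2,6-bisphosphatase that diverts glucose to the pentose phosphate pathway, was highest in mature cells at 7.85, 7.59 and 4.69 CPM in p53 AD/-, p53-/- and p53+/-, against 2.26, 2.75 and 2.16 CPM in DP cells, on 18, 37 and 19 UMIs in the mature gate. Phlda3, an inhibitor of Akt, and Abhd4, a lipid hydrolase, were highest in DN cells on only 1 to 9 UMIs a library.

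**Figure D2:**
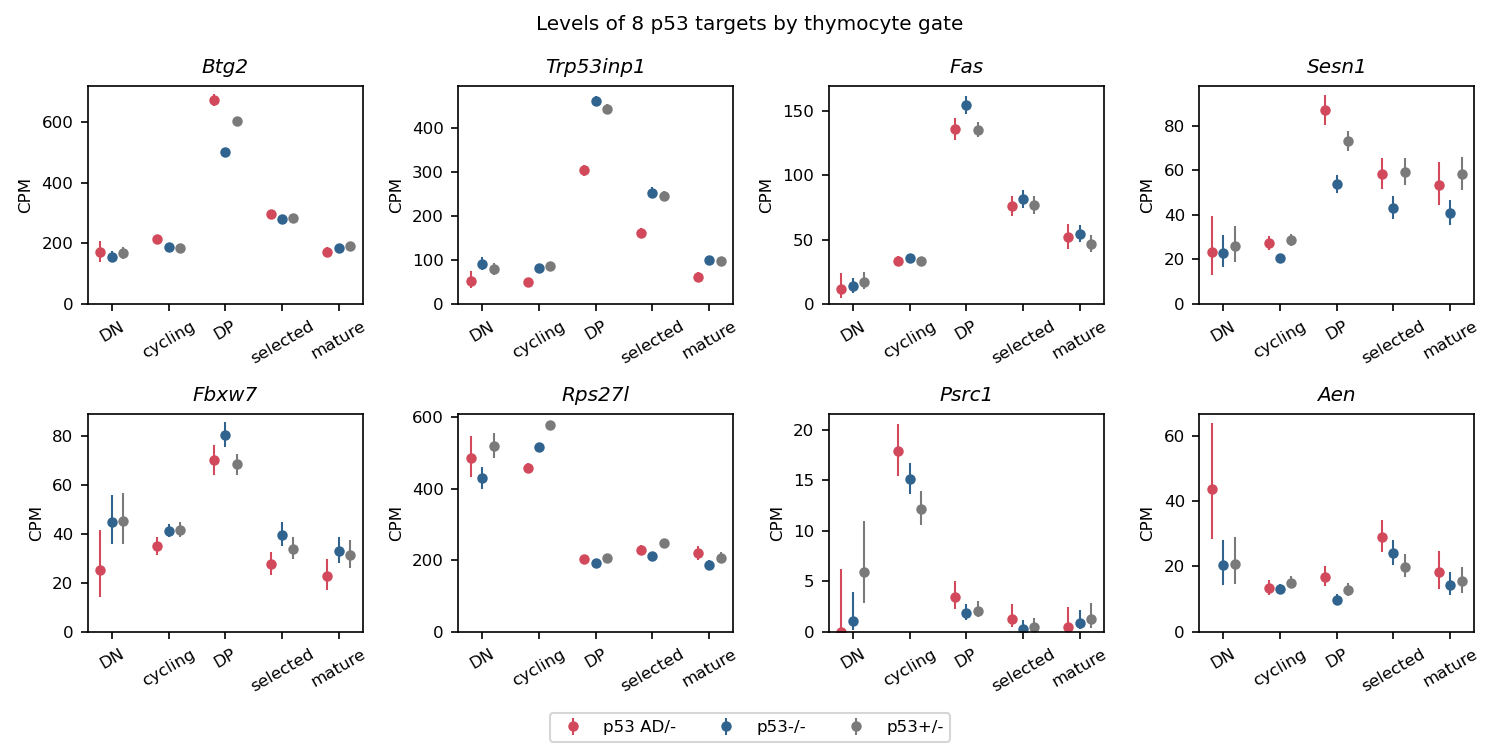
CPM of Btg2, Trp53inp1, Fas, Sesn1, Fbxw7, Rps27l, Psrc1 and Aen in the 5 gates from DN to mature, 1 point per library and gate, with exact Poisson 95% intervals. Btg2, Trp53inp1, Fas, Sesn1 and Fbxw7 peak in the DP gate in all 3 libraries, Psrc1 in cycling cells, and in each gate the p53 AD/- point of Trp53inp1 lies under those of the other libraries.

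Between genotypes, the 39 genes did not move as 1 block in DP cells, and a few stood apart between libraries. Their summed level was 1948 CPM in p53 AD/-, 1953 CPM in p53-/- and 2023 CPM in p53+/-. A ratio was read for genes with at least 30 UMIs over a pair of libraries and counted when past 1.5-fold. For p53 AD/- versus p53-/-, 25 genes qualified. Of these, 3 were past 1.5-fold higher (Sesn1, Aen and Psrc1), where 6.03% of all 10991 genes were, and 6 were past 1.5-fold lower (Trp53inp1, Apaf1, Zmat3, Plk2, Pidd1 and Slc19a2), where 20.4% of all genes were. As shares of the 25 genes these are 12% and 24%, and the median log2 ratio was -0.19, against -0.13 over all genes. In DP cells matched on Malat1, 24 genes qualified and 3 of them were past 1.5-fold higher (Sesn1, Aen and Btg2, with Psrc1 no longer among them) and 5 lower. These 8 stand beside 21.4% of all genes past 1.5-fold in either direction in matched cells, and the median log2 ratio was -0.02, against -0.09 over all genes.

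For p53 AD/- versus p53+/-, 25 genes qualified, 1 was past 1.5-fold higher (Psrc1; background 6.33%) and 2 were past 1.5-fold lower (Apaf1 and Zmat3; background 13.7%), with a median log2 ratio of -0.15 against -0.04 over all 10988 genes. For p53-/- versus p53+/-, 27 genes qualified, 2 were past 1.5-fold higher (Plk2 and Pidd1; background 6.50%) and 0 lower (background 2.98%), with a median of 0.01 against 0.09 over all 11461 genes. With 1 library a side no test lies behind these counts, and any pair of these comparisons shares a library. The shares of the listed genes were near or below the background, except for the higher share in p53 AD/- versus p53-/-, which rests on 3 genes. With each cell thinned to 1500 UMIs, 20 genes qualified for that pair, with 1 past 1.5-fold higher (Sesn1) and 2 lower. Of all genes, 26.1% were then past 1.5-fold in either direction. Aen then had a log2 ratio of 0.45 (-0.07 to 0.97).

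**Figure D3:**
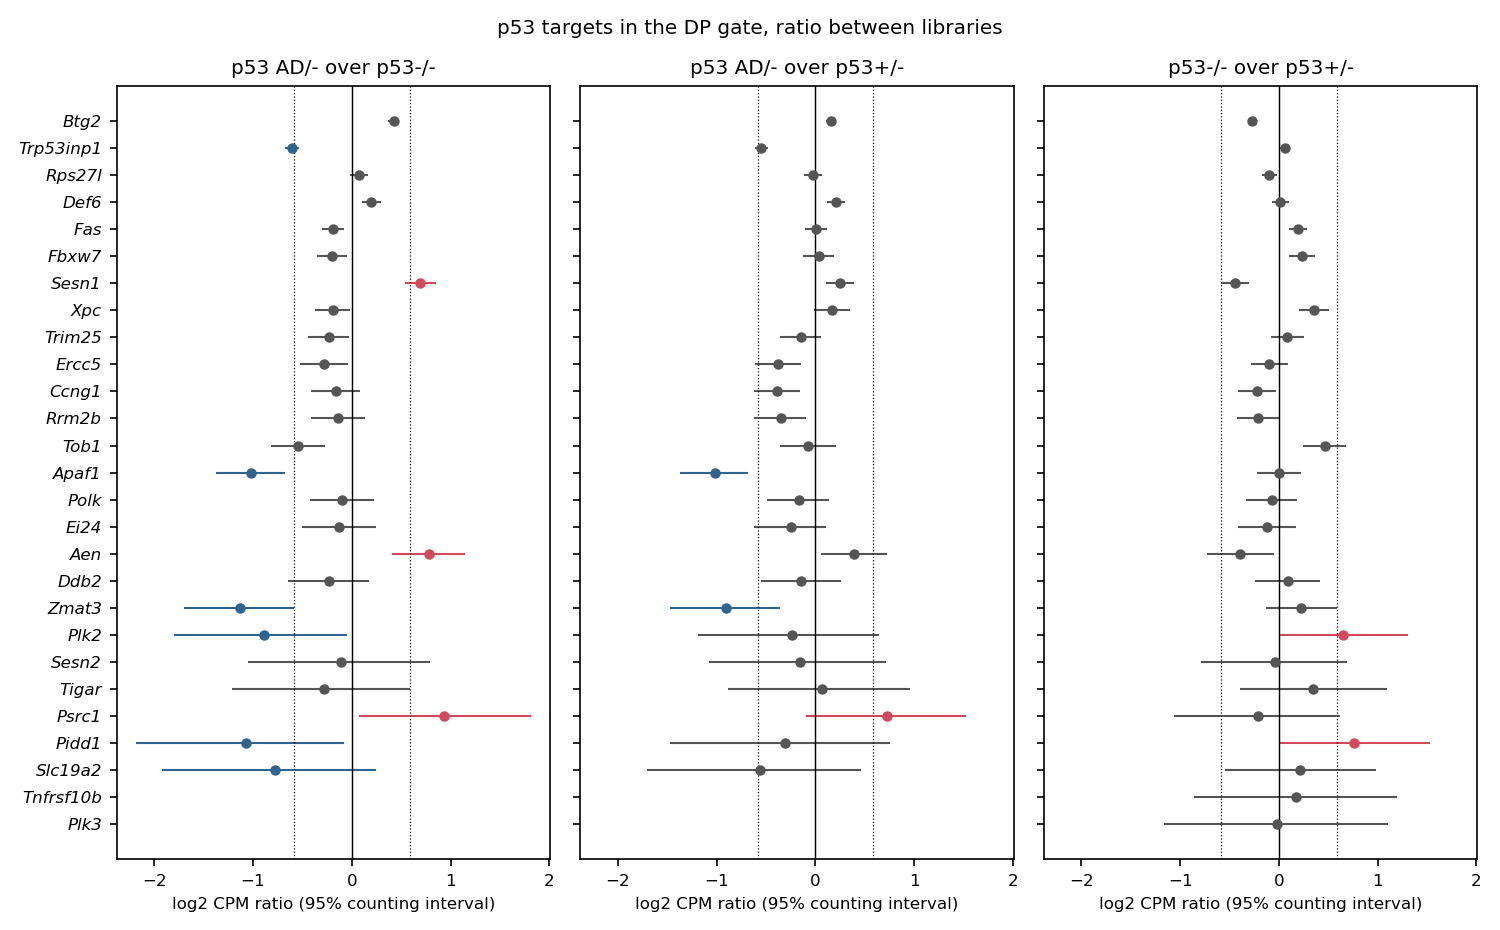
Log2 CPM ratios in the DP gate of 27 p53 target genes, with exact 95% intervals for counting error, for p53 AD/- versus p53-/-, p53 AD/- versus p53+/- and p53-/- versus p53+/-. Dotted lines mark 1.5-fold; red genes are past it upward and blue ones downward, and most of the 27 lie between the lines.

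Among genes of growth arrest and the cell cycle, 6 qualified for p53 AD/- versus p53-/- (1 higher, 1 lower, median log2 ratio -0.18). Btg2 (ENSMUSG00000020423, chromosome 1, 134075170 to 134079120, GRCm38) had 5066, 6392 and 8674 UMIs in DP cells of p53 AD/-, p53-/- and p53+/-, which are the 674 (655 to 693), 503 (490.3 to 515) and 606 (593 to 618) CPM given above. The 3 intervals did not overlap, with p53 AD/- highest and p53-/- lowest. The log2 ratio was 0.42 (0.37 to 0.48) for p53 AD/- versus p53-/-, 0.15 (0.10 to 0.20) for p53 AD/- versus p53+/- and -0.27 (-0.32 to -0.22) for p53-/- versus p53+/-, all within 1.5-fold. Psrc1 had 26, 23 and 30 UMIs in p53 AD/-, p53-/- and p53+/-, or 3.46, 1.81 and 2.09 CPM. Its log2 ratio was 0.94 (0.07 to 1.81) for p53 AD/- versus p53-/- and 0.72 (-0.09 to 1.53) for p53 AD/- versus p53+/-. In DP cells matched on their Malat1 share these ratios were 0.01 (-1.11 to 1.10) and -0.15 (-1.24 to 0.89). In DP cells with at least 1% Malat1, an alternative chosen after the values were seen, both stayed past 1.5-fold higher. As Psrc1 is highest in cycling cells, the cycling markers given above, 234 CPM in p53 AD/- against 329 CPM in p53-/-, stand beside it.

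Tob1, a relative of Btg2 known for keeping T cells quiescent, had 159, 391 and 319 UMIs in p53 AD/-, p53-/- and p53+/-, or 21.1, 30.7 and 22.3 CPM. It was highest in p53-/-, with log2 ratios of -0.54 (-0.81 to -0.27) for p53 AD/- versus p53-/- and 0.47 (0.25 to 0.68) for p53-/- versus p53+/-, both within 1.5-fold, and -0.38 and 0.54 in matched cells. In selected cells Tob1 stood at 13.7 CPM (p53 AD/-), 25.3 CPM (p53-/-) and 14.7 CPM (p53+/-), past 1.5-fold in both pairs with p53-/- (log2 ratios -0.88 and 0.79). In selected cells with at least 1% Malat1 the log2 ratio of p53 AD/- versus p53-/- was -0.82. Plk2, a polo-like kinase, had 16, 50 and 36 UMIs in DP cells of p53 AD/-, p53-/- and p53+/-, or 2.13, 3.93 and 2.51 CPM. Its log2 ratios were -0.89 (-1.80 to -0.05) for p53 AD/- versus p53-/- and 0.65 (-0.00 to 1.31) for p53-/- versus p53+/-. In matched cells they were -0.98 (-2.13 to 0.08) and 1.17 (0.17 to 2.24). In the stricter DP gate (no UMI of a cycling marker) these log2 ratios were -0.28 and 0.07, both within 1.5-fold. It was also highest in p53-/- in the mature gate, on 3 UMIs (p53 AD/-), 28 UMIs (p53-/-) and 4 UMIs (p53+/-). Ccng1, cyclin G1, which partners with PP2A in feedback on p53, stood at 28.2, 31.6 and 36.9 CPM in p53 AD/-, p53-/- and p53+/- and Fbxw7 at 70.1, 80.5 and 68.4 CPM, both within 1.5-fold in each pair.

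Of the group of death receptors and apoptosis, 7 genes qualified for p53 AD/- versus p53-/-, of which 1 was past 1.5-fold higher and 4 lower (6.03% and 20.4% of all genes), with a median log2 ratio of -0.61. Of the 4 lower genes, Trp53inp1 was within 1.5-fold in DP cells matched on Malat1, and Pidd1 was left with under 30 UMIs there. Trp53inp1 (ENSMUSG00000028211, chromosome 4, 11156431 to 11174379) had 2279, 5865 and 6338 UMIs in p53 AD/-, p53-/- and p53+/-, or 303 (291 to 316), 461 (449 to 473) and 443 (432 to 454) CPM. The p53 AD/- library lay below both others, which were close to each other. The log2 ratio was -0.61 (-0.68 to -0.54) over p53-/-, -0.55 (-0.62 to -0.48) over p53+/-, and 0.06 (0.01 to 0.11) for p53-/- versus p53+/-. In cells matched on Malat1 it was -0.52 over p53-/-, within 1.5-fold.

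Apaf1 (ENSMUSG00000019979, chromosome 10, 90989311 to 91082770), the scaffold of the apoptosome that activates caspase-9, had 91, 312 and 351 UMIs in p53 AD/-, p53-/- and p53+/-, or 12.1 (9.74 to 14.9), 24.5 (21.9 to 27.4) and 24.5 (22.0 to 27.2) CPM. It was lower in p53 AD/-, with the same log2 ratio of -1.02 (-1.37 to -0.68) over either library, and in cells matched on Malat1 with -0.90 over p53-/- and -0.83 over p53+/-. Zmat3 (ENSMUSG00000027663, chromosome 3, 32334792 to 32366014), an RNA-binding zinc finger protein that acts on splicing, had 36, 133 and 128 UMIs in p53 AD/-, p53-/- and p53+/-, or 4.79, 10.5 and 8.94 CPM. Its log2 ratio was -1.13 (-1.70 to -0.59) for p53 AD/- versus p53-/- and -0.90 (-1.48 to -0.36) over p53+/-. In matched cells it was -0.93 (-1.64 to -0.25) over p53-/- and -0.67 (-1.40 to 0.02) over p53+/-. In thinned DP cells (1500 UMIs) it was -0.55 (-1.21 to 0.09) over p53-/- and -0.45 (-1.13 to 0.19) over p53+/-, both within 1.5-fold. The mature gate showed the difference too, on 9, 46 and 32 UMIs in p53 AD/-, p53-/- and p53+/-. Of these, 3, 42 and 29 came from cells with at least 1% Malat1. In cycling cells the log2 ratio to p53-/- was 0.36, on 12 and 22 UMIs. In selected cells Zmat3 stood at 9.70, 9.74 and 9.27 CPM in p53 AD/-, p53-/- and p53+/-. Over all filtered cells the log2 ratio to p53-/- was -0.21.

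Aen (ENSMUSG00000030609, chromosome 7, 78895854 to 78911209), an exonuclease that promotes apoptosis and one of the genes with a half-site shown above, went the other way. It had 126, 124 and 183 UMIs in p53 AD/-, p53-/- and p53+/-, or 16.8 (14.0 to 19.9), 9.75 (8.11 to 11.6) and 12.8 (11.0 to 14.8) CPM. Its log2 ratio was 0.78 (0.41 to 1.15) for p53 AD/- versus p53-/-, 0.39 (0.05 to 0.73) for p53 AD/- versus p53+/- and -0.39 (-0.73 to -0.05) for p53-/- versus p53+/-. Pidd1 had 11, 39 and 26 UMIs in DP cells of p53 AD/-, p53-/- and p53+/-. Its log2 ratios were -1.07 (-2.18 to -0.07) for p53 AD/- versus p53-/- and 0.76 (0.00 to 1.53) for p53-/- versus p53+/-. The p53-/- versus p53+/- ratio was 0.68 (-0.40 to 1.81) in matched cells. Fas was within 1.5-fold in each pair, with log2 ratios of -0.19 (-0.30 to -0.08), 0.01 (-0.11 to 0.12) and 0.19 (0.10 to 0.28) for p53 AD/- versus p53-/-, p53 AD/- versus p53+/- and p53-/- versus p53+/-. Ei24, a protein of the endoplasmic reticulum, stood at 12.5 CPM (p53 AD/-), 13.7 CPM (p53-/-) and 14.9 CPM (p53+/-), with each ratio's interval holding 0.

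Among genes of nutrient sensing and metabolism, 4 qualified for p53 AD/- versus p53-/- (1 higher, 1 lower, median log2 ratio -0.20). Sesn1 (ENSMUSG00000038332, chromosome 10, 41809935 to 41908424) had 654, 685 and 1050 UMIs in p53 AD/-, p53-/- and p53+/-, or 87.0 (80.5 to 93.9), 53.9 (49.9 to 58.0) and 73.3 (68.9 to 77.9) CPM, and the 3 intervals did not overlap. Its log2 ratio was 0.69 (0.53 to 0.85) for p53 AD/- versus p53-/-, 0.25 (0.10 to 0.39) for p53 AD/- versus p53+/- and -0.44 (-0.59 to -0.30) for p53-/- versus p53+/-. The order p53 AD/-, p53+/-, p53-/- from high to low was shared with Btg2 and Aen in DP cells. The share of all genes with that order was not counted. In cells matched on Malat1 the log2 ratio of p53 AD/- versus p53-/- was 0.77 for Sesn1, 1.01 for Aen and 0.61 for Btg2. Slc19a2, a thiamine transporter, had 11, 32 and 31 UMIs in DP cells of p53 AD/-, p53-/- and p53+/-, with a log2 ratio of -0.78 (-1.92 to 0.24) for p53 AD/- versus p53-/-, and 6, 52 and 32 UMIs in cycling cells, with -1.88 (-3.40 to -0.67). In DP cells matched on Malat1 its log2 ratio was -0.85 (-2.16 to 0.34). In cycling cells with at least 1% Malat1 it was -1.37 (-3.75 to 0.36), on 2 UMIs in p53 AD/- and 23 in p53-/-. Sesn2, the stress-induced sestrin, was at 2.26 CPM (p53 AD/-), 2.44 CPM (p53-/-) and 2.51 CPM (p53+/-) in DP cells. It overlaps Gm12981 on the same strand, so reads may have been shared.

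No gene of DNA repair and nucleotide supply was past 1.5-fold in DP cells in any pair (5 qualified; median log2 ratio -0.19 for p53 AD/- versus p53-/-, -0.17 for p53 AD/- versus p53+/- and -0.07 for p53-/- versus p53+/-). Rrm2b, the ribonucleotide reductase subunit of resting cells, was at 22.7 CPM (p53 AD/-), 25.1 CPM (p53-/-) and 29.0 CPM (p53+/-). Polk, a translesion DNA polymerase, was at 16.8 CPM (p53 AD/-), 17.9 CPM (p53-/-) and 18.9 CPM (p53+/-). Of the nucleotide excision repair genes, Xpc was at 53.2, 60.7 and 47.3 CPM in p53 AD/-, p53-/- and p53+/-, Ddb2 at 10.2, 12.0 and 11.3 CPM, and Ercc5 at 27.9, 33.9 and 36.2 CPM. For Xpc the log2 ratio of p53-/- versus p53+/- was 0.36 (0.21 to 0.51), and for Ercc5 that of p53 AD/- versus p53+/- was -0.38 (-0.61 to -0.14). Ddb2 and Rrm2b overlap other genes (Acp2 and Gm49085), and whether counting used the strand is unknown from the sources used here, so reads may have been shared.

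The remaining genes with enough UMIs were also within 1.5-fold. Rps27l was at 203.5 CPM (p53 AD/-), 193 CPM (p53-/-) and 207 CPM (p53+/-) in DP cells, with a log2 ratio of 0.07 (-0.02 to 0.17) for p53 AD/- versus p53-/-. Def6, a guanine nucleotide exchange factor downstream of the T cell receptor, was at 192 CPM (p53 AD/-), 168 CPM (p53-/-) and 166 CPM (p53+/-), with log2 ratios of 0.20 (0.10 to 0.29) over p53-/- and 0.21 (0.11 to 0.30) over p53+/- (0.21 and 0.26 in matched cells). Trim25, a ubiquitin ligase of antiviral signalling, was at 38.7 CPM (p53 AD/-), 45.5 CPM (p53-/-) and 42.9 CPM (p53+/-). Of the 20 listed genes with at least 100 UMIs in the DP gate, 12 (60%) were lowest in the p53 AD/- library, where 47.2% of all 9922 such genes were, and 4 (20%; Btg2, Aen, Rps27l and Sesn1) were lowest in p53-/-, where 21.5% of all were. The highest level was in p53 AD/- for 4 (20%; Btg2, Aen, Sesn1 and Def6), in p53-/- for 10 (50%) and in p53+/- for 6 (30%). Of all such genes, 35.1%, 45.8% and 19.1% were highest in these libraries. This ranking was chosen after the values were seen.

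**Figure D4:**
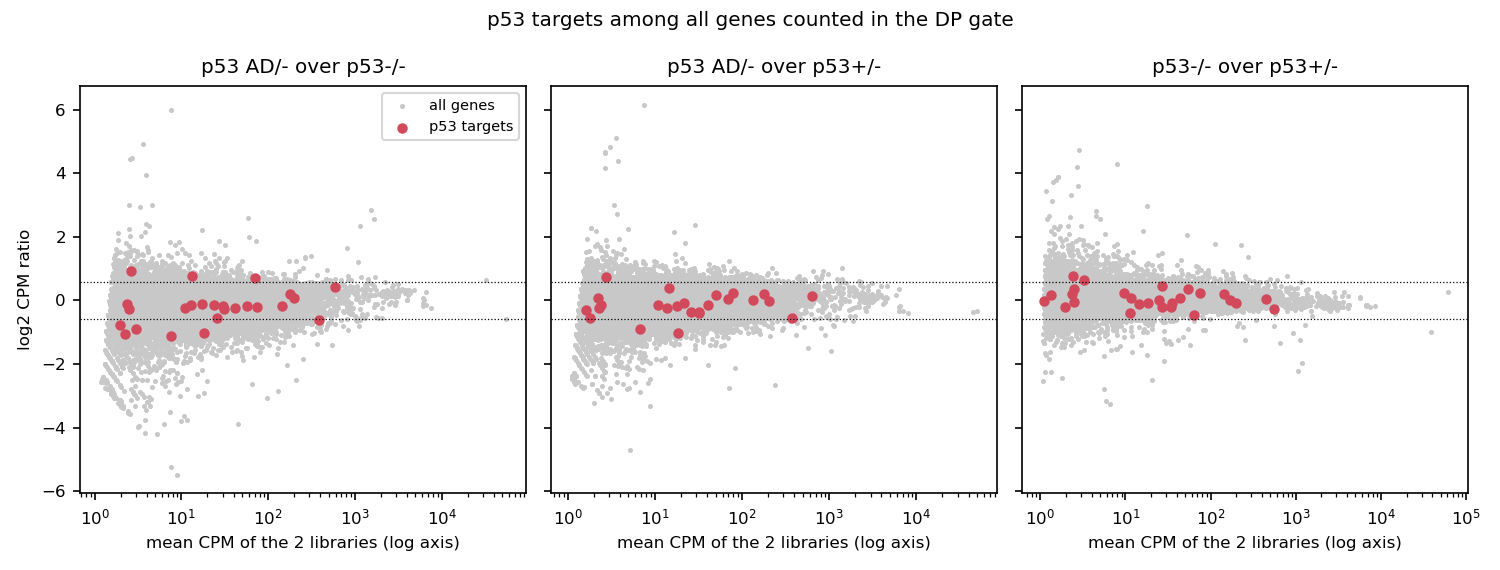
Log2 CPM ratio (vertical axis) against mean CPM on a log axis for all genes with at least 30 UMIs in the DP gate (grey), with the p53 target genes in red, for the 3 pairs of libraries. Dotted lines mark 1.5-fold. The red points lie within the grey cloud; in p53 AD/- versus p53-/- those above the upper line are Psrc1, Aen and Sesn1 and those below the lower line Slc19a2, Pidd1, Plk2, Zmat3, Apaf1 and Trp53inp1, from left to right.

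Outside the DP gate, some of these differences stood in every gate and others did not. The share of cells under 1% Malat1 differed there too, at 74.5%, 27.3% and 29.8% of DN cells of p53 AD/-, p53-/- and p53+/-, 57.9%, 43.9% and 55.1% of cycling cells, 20.5%, 0.729% and 0.718% of selected cells and 44.3%, 6.52% and 8.29% of mature cells. For part of the ratios, values in cells with at least 1% Malat1, an alternative chosen after the values were seen, are given beside those of all cells. Trp53inp1 was lower in p53 AD/- than in either other library in all 5 gates. Its log2 ratio over p53-/- was -0.81 in DN, -0.70 in cycling, -0.61 in DP, -0.65 in selected and -0.72 in mature cells, and over p53+/- it was -0.60, -0.78, -0.55, -0.61 and -0.68. In cells with at least 1% Malat1 it was -0.56 in cycling, -0.53 in selected and -0.61 in mature cells over p53-/-, and -0.76, -0.49 and -0.60 over p53+/-, while in DN cells it was -0.32 (-1.49 to 0.65) over p53-/- on 9 UMIs in p53 AD/-. Apaf1 had a log2 ratio over p53-/- of -0.90 (-1.18 to -0.62) in cycling cells and -0.92 (-1.43 to -0.43) in selected cells, and -0.82 in either gate in cells with at least 1% Malat1. In mature cells Apaf1 stood at 10.5, 12.7 and 15.6 CPM in p53 AD/-, p53-/- and p53+/- on 24, 62 and 63 UMIs.

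Sesn1 was lowest in p53-/- in the cycling, DP, selected and mature gates. In DN cells it stood at 23.5, 23.1 and 26.2 CPM in p53 AD/-, p53-/- and p53+/-, on 14, 42 and 44 UMIs. There p53 AD/- and p53-/- were level, with a log2 ratio of 0.03. In DN cells with at least 1% Malat1 this ratio was -0.14 (-2.48 to 1.53), on 3 UMIs in p53 AD/-. Its log2 ratio of p53-/- versus p53+/- was -0.47 (-0.65 to -0.29) in cycling, -0.46 (-0.69 to -0.24) in selected and -0.51 (-0.79 to -0.24) in mature cells. The ratio of p53 AD/- versus p53+/- was near 0 in those gates (-0.07, -0.03 and -0.12, and -0.04, 0.03 and -0.07 in cells with at least 1% Malat1), so the higher Sesn1 level of p53 AD/- than p53+/- was seen in DP cells. Whether gates differed in this ratio was not tested.

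Btg2 had a log2 ratio of p53 AD/- versus p53-/- of 0.19 (0.12 to 0.26) in cycling, 0.07 (-0.03 to 0.18) in selected and -0.13 (-0.31 to 0.04) in mature cells, which were 0.40, 0.22 and 0.05 in cells with at least 1% Malat1. Aen was highest in DN cells of p53 AD/- at 43.6 CPM, against 20.3 CPM in p53-/- and 20.9 CPM in p53+/-, on 26, 37 and 35 UMIs, of which 5, 26 and 15 came from cells with at least 1% Malat1. In cycling cells Aen stood at 13.4 CPM (p53 AD/-), 13.1 CPM (p53-/-) and 15.0 CPM (p53+/-). In selected cells, on 137, 153 and 129 UMIs in p53 AD/-, p53-/- and p53+/-, Aen had another order than in DP cells. Its log2 ratio there was 0.27 for p53 AD/- versus p53-/- and 0.27 for p53-/- versus p53+/-. In mature cells, on 42, 70 and 63 UMIs, these ratios were 0.35 and -0.12.

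**Figure D5:**
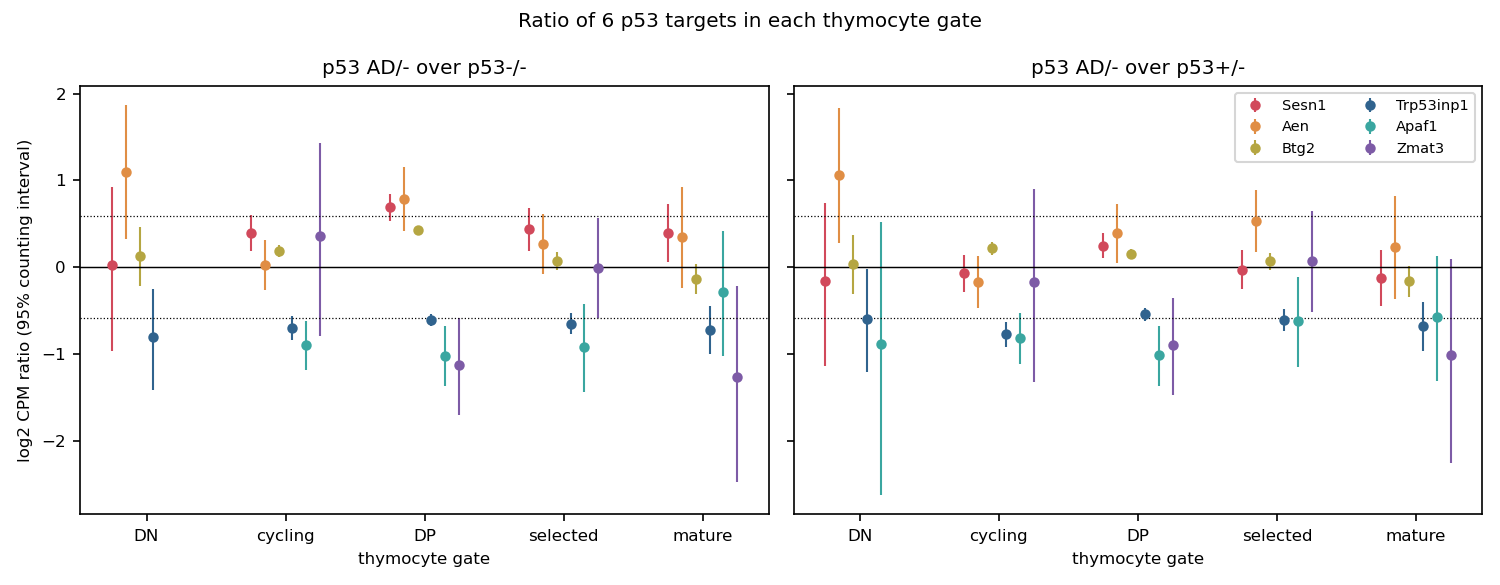
Log2 CPM ratios of Sesn1, Aen, Btg2, Trp53inp1, Apaf1 and Zmat3 in the 5 gates, with exact 95% intervals, for p53 AD/- versus p53-/- and p53 AD/- versus p53+/-, where a pair held at least 30 UMIs. Trp53inp1 lies below 0 in every gate of both panels, and Sesn1 lies above 0 in the cycling, DP, selected and mature gates over p53-/- but near 0 over p53+/- except in DP.

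In each other gate the lower calls outnumbered the higher ones in both comparisons of p53 AD/-, among the listed genes as among all genes. The counts of genes below are over all cells of a gate, and the part of the Malat1 difference in them was not tested. In cycling cells 1 of 28 genes was past 1.5-fold higher and 7 lower for p53 AD/- versus p53-/-, against 4.03% and 23.0% of all genes, and the lower ones were Apaf1, Pidd1, Trp53inp1, Sesn2, Tigar, Slc19a2 and Abhd4. The higher one was Phlda3, on 33 UMIs in p53 AD/- and 43 in p53-/-. For p53 AD/- versus p53+/- it was 0 and 6 of 26 (4.89% and 16.4% of all genes), and for p53-/- versus p53+/- 2 and 2 of 30 (5.12% and 2.41%).

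In selected cells 0 of 22 genes were higher and 6 lower for p53 AD/- versus p53-/- (5.19% and 19.9% of all genes), 1 and 3 of 21 over p53+/- (5.93% and 14.0%), and 2 and 0 of 22 for p53-/- versus p53+/- (6.30% and 3.14%). In mature cells the counts were 1 and 5 of 22 (5.14% and 22.2%), 1 and 3 of 21 (5.96% and 15.5%) and 3 and 1 of 23 (6.98% and 3.19%) for the same pairs. Rrm2b was the 1 higher gene in mature cells of p53 AD/- versus p53-/-, at 18.3, 10.9 and 16.8 CPM in p53 AD/-, p53-/- and p53+/-. In the small DN gate the counts were 1 and 5 of 14 (8.30% and 26.2%), 2 and 6 of 16 (10.7% and 22.5%) and 0 and 0 of 17 (8.59% and 4.72%), again for these pairs.

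Of 35 other genes of the p53 pathway (regulators, partners and further targets), 30 qualified in DP cells for p53 AD/- versus p53-/-, with 0 past 1.5-fold higher and 8 lower (6.03% and 20.4% of all genes) and a median log2 ratio of -0.19, against -0.13 over all genes. For p53 AD/- versus p53+/- 1 of 29 was higher and 4 were lower (6.33% and 13.7% of all genes; median -0.09, against -0.04 over all), and for p53-/- versus p53+/- 2 of 30 were higher and 0 lower (6.50% and 2.98% of all genes; median 0.13, against 0.09 over all). These genes were not followed in matched cells. Hipk2, a kinase that phosphorylates p53, stood at 5.45, 19.9 and 11.9 CPM in p53 AD/-, p53-/- and p53+/-, with a log2 ratio of -1.87 (-2.38 to -1.39) over p53-/- and -1.13 over p53+/-. Lpin1, a phosphatidate phosphatase, stood at 7.85, 18.5 and 16.1 CPM in p53 AD/-, p53-/- and p53+/-, and Foxo3, a forkhead factor restrained by Akt, at 22.3, 40.2 and 35.6 CPM. Cop1, a ubiquitin ligase for p53, stood at 47.1, 73.5 and 67.3 CPM in p53 AD/-, p53-/- and p53+/-, and Trp53i11 at 153, 234 and 172 CPM. Cdkn1a (p21), the cyclin-dependent kinase inhibitor, was the 1 gene past 1.5-fold higher for p53 AD/- versus p53+/-, at 2.79 CPM (p53 AD/-), 2.20 CPM (p53-/-) and 1.54 CPM (p53+/-) in DP cells on 21, 28 and 22 UMIs, with a log2 ratio of 0.86 (-0.07 to 1.79).

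A further 9 of the 39 genes had under 100 UMIs in gated thymocytes. Eda2r, a death receptor of the TNF receptor family, had 0 UMIs in each library, which allows up to 0.116, 0.0588 and 0.0682 CPM in p53 AD/-, p53-/- and p53+/- (3 UMIs). Ddit4l, an mTOR inhibitor, had 0, 0 and 1 in p53 AD/-, p53-/- and p53+/-, Ak1, an adenylate kinase, 1, 2 and 0, Epha2, a receptor tyrosine kinase, 1, 1 and 2, and Gdf15, a stress cytokine of the TGF-beta family, 2, 3 and 2. Cd80, a costimulatory ligand, had 0, 4 and 7 UMIs in p53 AD/-, p53-/- and p53+/-, Trp53cor1 (lincRNA-p21) 4, 8 and 2, Dram1, a lysosomal protein of autophagy, 4, 8 and 7, and Perp, a desmosomal membrane protein, 6, 22 and 12. Where a ratio could be formed, its interval held 0 in each pair, so no difference was detectable at these depths. Tnfrsf10b, the TRAIL receptor, had 26, 61 and 53 UMIs in p53 AD/-, p53-/- and p53+/- and Dglucy, a D-glutamate cyclase, 22, 73 and 53.

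Several of these were read mostly in the 91, 200 and 94 cells of p53 AD/-, p53-/- and p53+/- whose non-T markers outnumbered their T lineage markers. Perp stood there at 157, 49.2 and 30.2 CPM in p53 AD/-, p53-/- and p53+/-, on 163, 109 and 36 UMIs. Gdf15 stood at 28.0, 11.7 and 40.3 CPM in p53 AD/-, p53-/- and p53+/-, Dram1 at 15.4, 31.2 and 16.8 CPM and Cd80 at 16.4, 12.6 and 19.3 CPM. Phlda3 had 188 UMIs in gated thymocytes over the 3 libraries. In the non-T cells of p53 AD/-, p53-/- and p53+/- it had 39, 66 and 36 UMIs, or 37.6, 29.8 and 30.2 CPM. These cells were a mixture whose make-up differed between libraries: macrophage or dendritic markers summed to 29547, 23167 and 18007 CPM in p53 AD/-, p53-/- and p53+/-, granulocyte markers to 2540, 36911 and 6278 CPM, erythroid markers to 179, 465 and 4441 CPM and stromal markers to 2434, 1331 and 3704 CPM. The part of this make-up in the levels of Perp and the others was not tested.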

How the data were processed

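Single-cell RNA of 3 mouse thymus libraries, 1 per genotype, was used. The deposited values were counts of UMIs per gene and barcode, which per the file headers the authors made with Cell Ranger 4.0.0; the build was GRCm38 per the submitters' processing notes. Of the annotation used for counting, the chemistry and the strand setting, none is given in the sources used here. Of the genes, 32235 (99.8%) were found in GENCODE M21 by identifier. Barcodes with at least 500 genes and under 10% mitochondrial UMIs were kept. Libraries shared 21 (p53 AD/- and p53-/-), 15 (p53 AD/- and p53+/-) and 29 (p53-/- and p53+/-) barcodes, at most 0.333% of the smaller library.

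Cells were gated in this order: other (more non-T than T lineage marker UMIs), cycling (at least 20 of 10000 UMIs, and 5 UMIs, from cycling markers), DN (at least 3 DN marker UMIs, and more than of Cd4, Cd8a and Cd8b1), mature and selected (at least 3 marker UMIs, and more than of a DP marker set that includes Rag1 and Rag2; for mature also at least 50% of the selected sum), and DP (at least 3 UMIs of that set and 1 of Cd4, Cd8a or Cd8b1). The gate limits were set after marker levels were seen. No doublet caller was run, so doublets remain. UMIs were summed per gate and library. CPM have exact Poisson intervals and log2 ratios exact conditional binomial intervals (95%), for counting error only; free RNA adds UMIs to all cells.

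Genes with at least 100 UMIs in the DP gate over the 3 libraries, or past 1.5-fold there in any pair with at least 30 UMIs, were described in full, as were genes over 5 times higher in another gate in all libraries. Other pathway genes were named when past 1.5-fold with at least 100 UMIs over the pair. Cdkn1a, which had fewer UMIs, was named outside this rule. The genes and lists were chosen with earlier results of these data known. Promoter windows and their sequences came from RefSeq on GRCm38.p6. Scipy 1.17.1, numpy 2.4.6, pandas 2.3.3 and matplotlib 3.10.9 in Python 3.11.15 and, for TMM factors, edgeR 4.0.16 in R 4.3.3 were used, and the ratios and intervals were tested on simulated data. In all, 13 alternatives were tried.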

Additional observations from a re-analysis of the deposited data

How the results depend on the processing

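No paired analysis was possible because there was 1 library per genotype, and no library could be left out. Of 866 single-gene values under 13 alternatives (12 planned; 1, only cells with at least 1% Malat1, chosen after seeing the data), 803 kept their place, 62 moved and 1 reversed: Psrc1 for p53 AD/- versus p53+/- was -0.15 on the log2 scale in cells matched on Malat1. Sesn1 for p53 AD/- versus p53-/- ranged from 0.64 to 0.83 and stayed past 1.5-fold in 13 of 13 alternatives, as did Apaf1 (-1.06 to -0.88, and -1.02 to -0.83 over p53+/-). Aen (0.41 to 1.01) and Zmat3 (-1.40 to -0.21) did so in 11 of 13, and Trp53inp1 (-0.64 to -0.47), which lies close to 1.5-fold, in 6 of 13. Plk2 (-1.16 to -0.28) did so in 10 of the 12 alternatives that gave it a value, and for p53-/- versus p53+/- (0.07 to 1.17) in 8 of 12. These tallies, and the 803 values above, include the alternatives that changed only the UMI minimum. Those reuse the same sums, so a single-gene ratio could not change in them. The count of genes past 1.5-fold for p53 AD/- versus p53-/- was 9 of 25 (26.5% of all genes), and 5 of 19 (22.0% of all genes) with at least 100 UMIs over the pair and 3 of 20 (26.1% of all genes) in cells thinned to 1500 UMIs. For p53 AD/- versus p53+/- it was 3 of 25 (19.99% of all genes), and 7 of 33 (30.5%) with no minimum beyond 3 UMIs, 5 of 34 (24.0%) in all filtered cells and 1 of 19 (19.4%) thinned. For p53-/- versus p53+/- it was 2 of 27 (9.48% of all genes), 0 of 19 (4.97%) with at least 100 UMIs and 6 of 34 (18.3%) with no minimum. It was 1 of 27 with TMM (9.07%) or median-of-ratios factors (9.06%). With the mean over cells it was 0 of 26 (9.9%), and in all filtered cells 5 of 34 (14.55%). In the stricter DP gate it was 0 of 22 (9.7%), and in cells matched on Malat1 4 of 25 (9.65%). The median log2 ratio of p53 AD/- versus p53-/- was -0.19, and -0.068 with TMM factors, -0.055 with median-of-ratios factors and -0.021 after matching cells on Malat1; TMM moved the median of all genes from -0.13 to -0.01. The count of genes highest in 1 gate in all libraries was 16, and 10 in thinned cells: Rrm2b, Polk and Ercc5 lost a common highest gate with over 100 UMIs left, Slc19a2, Abhd4, Phlda3 and Tigar had under 100 UMIs left, and Rps27l (cycling) gained one. The causes were not tested otherwise. Depth limits all values under about 30 UMIs.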
